A study of Rattus norvegicus with 2 samples.

Results

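The D cyclins (Ccnd1, Ccnd2, Ccnd3), their kinases (Cdk4, Cdk6), the CDK inhibitors Cdkn1a, Cdkn1b, Cdkn1c and Cdkn2c, and the retinoblastoma gene Rb1 were followed in cultures labelled as rat OPCs, oligodendrocyte precursor cells, which divide and then mature into the glia that make myelin. These 10 genes were taken by symbol from the 17455 genes of the deposited table, and all 10 were found. Wild-type OPCs had been given a vector alone (the control library) or Slit1, a secreted ligand of Robo receptors (the Slit1 library), by transfection with a Lonza kit, and total RNA was sequenced. There was 1 library per group. The series asks what Slit1 overexpression does during OPC differentiation. The sources used here give no time of harvest and no number of animals or cultures.

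In G1, the phase before DNA synthesis, D cyclins bind Cdk4 or Cdk6 and the complexes phosphorylate the retinoblastoma protein, which frees E2F factors to switch on the genes of DNA replication. INK4 inhibitors such as p18 (Cdkn2c) bind the kinases themselves, while the Cip/Kip inhibitors p21 (Cdkn1a), p27 (Cdkn1b) and p57 (Cdkn1c) act on cyclin-kinase complexes, chiefly those of Cdk2. In OPCs growth factors sustain D cyclin expression, and p27 and p57 are known for their part in leaving the cell cycle as the cells differentiate.

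For 6 of the 10 genes the RefSeq promoter table (build GRCr8) holds a window from 250 bases before to 50 bases after an annotated transcription start; Ccnd1, Ccnd2, Cdk6 and Cdkn1c have no entry there. A pair of genes that measured higher in the Slit1 library (Cdk4, Ccnd3) and a pair that measured lower (Cdkn1b, Rb1) are shown, so that the letters can be read beside the values that follow. Capitals mark matches on either strand to the E-box CACGTG, the GC box GGGCGG, the cyclic AMP response core TGACGT, the CCAAT box, and the E2F words TTTCCCGC, TTTGGCGC and TTTCGCGC.
Cdk4, chr7:64771203-64771502, plus strand: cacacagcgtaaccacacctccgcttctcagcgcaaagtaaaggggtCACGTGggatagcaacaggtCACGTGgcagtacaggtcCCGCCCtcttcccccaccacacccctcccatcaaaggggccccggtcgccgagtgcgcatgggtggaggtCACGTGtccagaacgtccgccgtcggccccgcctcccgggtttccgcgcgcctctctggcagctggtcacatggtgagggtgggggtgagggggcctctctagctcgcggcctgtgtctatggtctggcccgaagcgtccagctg
Ccnd3, chr9:20897826-20898125, minus strand: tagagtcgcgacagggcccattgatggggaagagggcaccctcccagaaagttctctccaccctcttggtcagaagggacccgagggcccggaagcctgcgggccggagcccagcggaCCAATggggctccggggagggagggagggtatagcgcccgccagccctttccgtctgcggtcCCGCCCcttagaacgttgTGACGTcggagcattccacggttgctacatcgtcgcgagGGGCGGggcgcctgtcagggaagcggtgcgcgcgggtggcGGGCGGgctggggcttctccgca
Cdkn1b, chr4:169491254-169491553, plus strand: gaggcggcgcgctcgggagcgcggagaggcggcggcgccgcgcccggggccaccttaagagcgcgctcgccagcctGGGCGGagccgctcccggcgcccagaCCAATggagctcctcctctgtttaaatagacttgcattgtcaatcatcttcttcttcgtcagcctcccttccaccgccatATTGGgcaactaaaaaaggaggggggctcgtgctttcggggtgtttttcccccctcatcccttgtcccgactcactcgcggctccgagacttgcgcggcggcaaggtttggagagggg
Rb1, chr15:54911808-54912107, minus strand: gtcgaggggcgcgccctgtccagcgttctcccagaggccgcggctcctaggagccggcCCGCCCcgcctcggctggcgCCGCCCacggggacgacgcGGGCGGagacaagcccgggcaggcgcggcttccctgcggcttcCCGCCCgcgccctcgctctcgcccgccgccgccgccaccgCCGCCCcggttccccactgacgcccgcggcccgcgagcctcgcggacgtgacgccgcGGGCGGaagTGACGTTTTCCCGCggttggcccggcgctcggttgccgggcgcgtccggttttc

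Of the 6 windows, those of Cdkn1a and Cdkn2c are not shown: the Cdkn1a window holds none of the marked words, and the Cdkn2c window 1 GC box. The Cdk4 window holds 3 E-boxes and 1 GC box; the E-box occurs in 6.42% of all 33469 promoter windows of this length and in none of the other 5 windows of the set. The Rb1 window, of which 79.7% is G or C, holds 6 GC boxes and a TGACGT core directly followed by an E2F word. The E2F words occur in 1.72% of all windows, and Rb1 is the only one of the 6 genes with a match. The Ccnd3 window holds 3 GC boxes, 1 TGACGT core and 1 CCAAT box, and the Cdkn1b window 1 GC box and 2 CCAAT boxes. Across all windows the GC box occurs in 33.1%, the TGACGT core in 7.94% and the CCAAT box in 37.5%. The words were chosen after the windows were seen, so the shares over all windows do not measure how unusual a match is. A match describes letters only, and RNA levels do not show which of these words are bound.

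The libraries held 18817462 estimated counts (control) and 18998770 (Slit1). Slit1 itself measured 1.70 TPM (a transcript level corrected for gene length and library total) in control and 229.7 TPM in the Slit1 library. OPC markers were present, with a summed level of 2047 TPM in control and 2085 TPM in Slit1 over 7 genes, and Pdgfra at 40.2 and 41.4 TPM. Of these 7, 2 were at least 1.5-fold higher in Slit1, beside 3.72% of the 13175 genes averaging 1 TPM or more. They were Gpr17 (109.8 and 263 TPM) and Sox10 (71.4 and 218 TPM), while Ptprz1 measured 914 and 688 TPM. The 8 astrocyte markers were abundant in both libraries as well, at 9446 and 10450 TPM in sum, led by Gfap at 4694 and 6130 TPM. Markers of microglia (3.02 and 5.19 TPM over 6 of 10 genes), of endothelium and pericytes (12.1 and 10.8 TPM over 6 of 7) and of fibroblasts (15.7 and 14.2 TPM over 4 of 5) were low, those of Schwann cells summed to 59.8 and 37.9 TPM, and those of neurons to 177 and 181 TPM, mostly from Map2. Itgam, Cldn5 and Dcn were each the only gene of these 3 lists at 0 in control, and each had about 1 count in Slit1. Other genes of the same lists were detected in control, such as Cd68 (1.91 TPM), Flt1 (4.51 TPM) and Col1a2 (11.7 TPM). The 9 oligodendrocyte markers in the table summed to 1154.5 TPM in control and 4641 TPM in Slit1, and Mbp, which encodes myelin basic protein, went from 220.5 to 1704 TPM. In bulk RNA, fewer cells of a type and less RNA per cell cannot be told apart.

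With 1 library per group no difference has a replicate check and none was tested; the 95% intervals given with ratios are exact Poisson intervals for counting error, which do not cover variation from culture to culture. A gene is called higher or lower when log2(TPM + 1) differed by at least 1.5-fold. Of the 10 genes, 1 was higher (Cdkn1c) and 2 were lower (Ccnd1, Ccnd2) in the Slit1 library. Of all 13175 genes tested, those averaging 1 TPM or more, 3.72% were higher and 4.83% lower by this rule. At a limit of 2-fold the calls were Cdkn1c, beside 1.24% of all genes higher, and Ccnd2, beside 0.645% of all genes lower. The median log2 difference of the 10 genes was -0.38, against -0.05 for all genes tested.

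**Figure D1:**
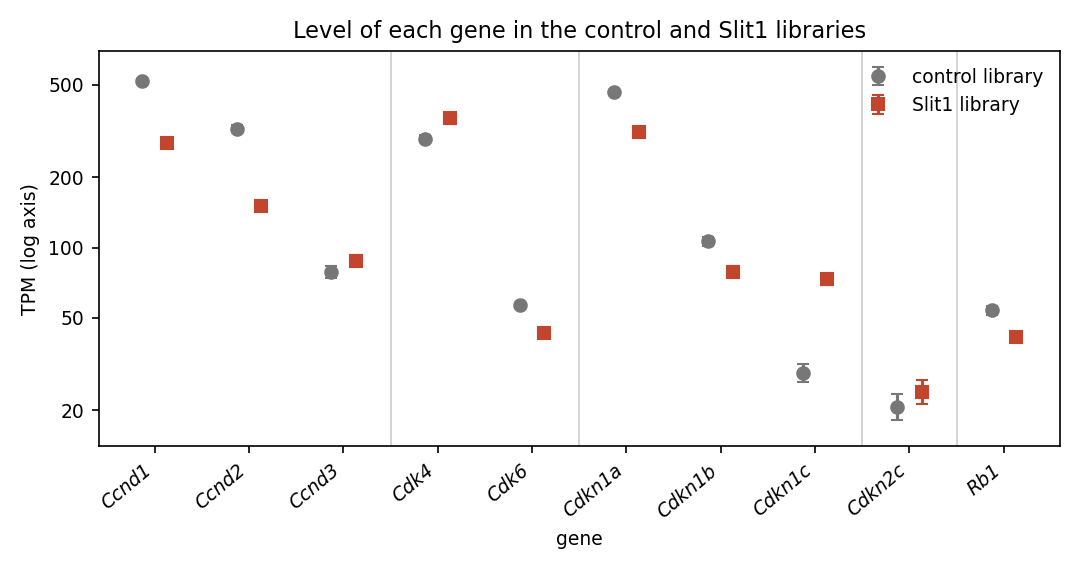
TPM on a log axis of each of the 10 genes in the control library (grey circles) and the Slit1 library (red squares), with 1 library per group and 95% counting intervals as bars; grey lines part the D cyclins, kinases, Cip/Kip inhibitors, Cdkn2c and Rb1. Ccnd1 and Ccnd2 sit lower in the Slit1 library (281 and 151.5 TPM) than in control (522 and 324 TPM), and Cdkn1c sits higher (73.1 against 29.0 TPM).

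The D cyclins did not move as a block. Ccnd1, the main mitogen-responsive D cyclin, measured 522 TPM (16920.2 estimated counts) in the control library and 281 TPM (9469.9 counts) in the Slit1 library. It was the most abundant of the 10 genes in control and stood behind Cdk4 and Cdkn1a in Slit1. The ratio was 0.538 (interval 0.525 to 0.552), or 1.86-fold lower.

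Ccnd2, the D cyclin that shares this role in many neural progenitors, measured 324 TPM (3825 counts) in control and 151.5 TPM (1861 counts) in Slit1. Its ratio of 0.467 (interval 0.442 to 0.494), or 2.14-fold lower, made it the lowest of the set. Counted from the lowest difference, Ccnd2 ranked 68 and Ccnd1 ranked 145 of all 13175 genes tested, and they ranked 3 and 8 among the 2081 genes that averaged 100 TPM or more.

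Ccnd3, the D cyclin often retained in differentiated cells, measured 78.5 TPM (1226 counts) in control and 88.0 TPM (1391 counts) in Slit1. Its ratio of 1.12 (interval 1.04 to 1.21) lay on the other side of 1 from those of the other D cyclins. The ratio of Ccnd1 to Ccnd3 in TPM went from 6.64 to 3.19, a change of 0.480 (exact conditional interval 0.442 to 0.521), and that of Ccnd2 to Ccnd3 from 4.13 to 1.72 (change 0.417, interval 0.379 to 0.459). Ccnd1 and Ccnd2 stayed closer to each other, at a Ccnd1 to Ccnd2 ratio of 1.61 in control and 1.85 in Slit1 (change 1.15, interval 1.08 to 1.22).

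The summed level of the D cyclins was 924 TPM in control and 520.2 TPM in Slit1, 1.78-fold lower. Ccnd1 supplied 56.4% of this sum in control and 54.0% in Slit1, and Ccnd2 supplied 35.1% and 29.1%. The share of Ccnd3 went from 8.50% to 16.9%. In counts, which are not corrected for length, Ccnd3 held 5.58% of the reads of the D cyclins in control (exact binomial interval 5.28% to 5.89%) and 10.9% in Slit1 (interval 10.4% to 11.5%).

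The kinases lay on opposite sides of 1 and neither passed the 1.5-fold limit. Cdk4 measured 294 TPM (3360.4 counts) in control and 359.9 TPM (4290.2 counts) in Slit1, a ratio of 1.23 (interval 1.17 to 1.28), and became the most abundant of the 10 genes. Cdk4 overlaps Tspan31, a tetraspanin gene, in the annotation, and Tspan31 measured 169 TPM in control and 173 TPM in Slit1; no source used here says how reads in the overlap were assigned.

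Cdk6, which serves as the alternative partner of D cyclins, measured 56.5 TPM (5210.4 counts) in control and 43.0 TPM (4127 counts) in Slit1. Its ratio was 0.761 (interval 0.731 to 0.793). Cdk4 made up 83.9% of the summed kinase level in control and 89.3% in Slit1, and the ratio of Cdk4 to Cdk6 in TPM went from 5.20 to 8.37 (change 1.61, interval 1.51 to 1.71). The sum of both kinases was 350.1 TPM in control and 403 TPM in Slit1, and the D cyclin sum over the kinase sum was 2.64 in control and 1.29 in Slit1.

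**Figure D2:**
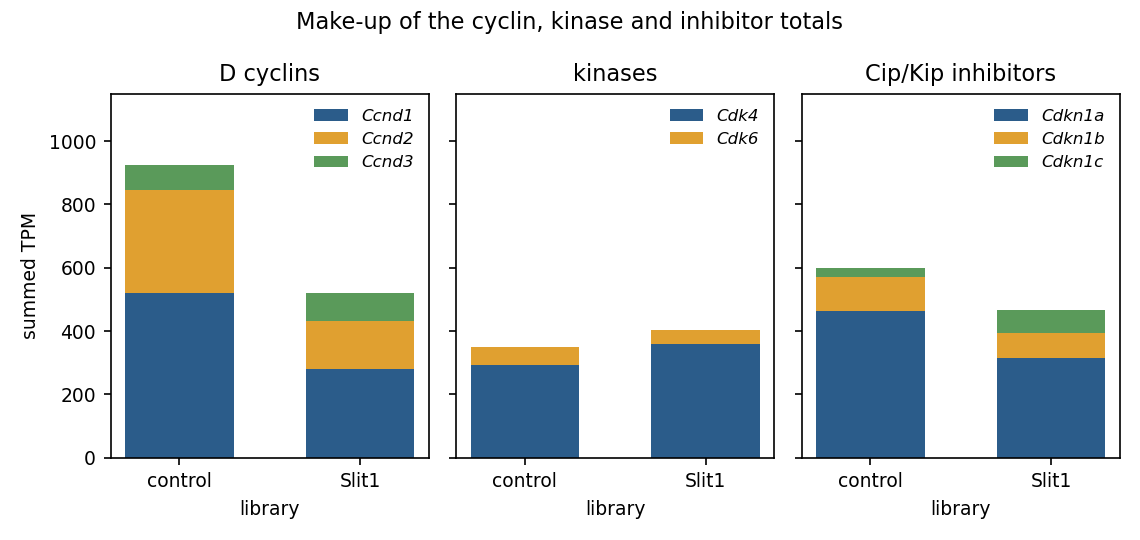
Summed TPM (bars from 0) of the D cyclins, the kinases and the Cip/Kip inhibitors in the control and Slit1 libraries, with the part of each gene in colour; each bar is 1 library. The D cyclin sum is lower in Slit1 (520.2 against 924 TPM), the kinase sum is 403 against 350.1 TPM, and the part of Cdkn1c in the inhibitor sum is larger.

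Among the Cip/Kip inhibitors Cdkn1c stood apart from the others. Cdkn1c, the imprinted gene of p57, measured 29.0 TPM (470 counts) in control and 73.1 TPM (1222 counts) in Slit1. The ratio was 2.52 (interval 2.27 to 2.81), and the log2 difference of 1.31 ranked 90 from the highest of the 13175 genes tested. No annotated gene overlaps it in RefSeq.

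Cdkn1a, the p53 target that encodes p21, measured 464 TPM (7835 counts) in control and 314 TPM (5494 counts) in Slit1. Its ratio of 0.677 (interval 0.654 to 0.701) was 1.48-fold lower, just inside the limit. Cdkn1b, which encodes p27, a protein controlled largely by its turnover, measured 106 TPM (1868 counts) in control and 78.8 TPM (1413 counts) in Slit1, a ratio of 0.740 (interval 0.690 to 0.794).

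The sum of the Cip/Kip genes was 599.6 TPM in control and 466 TPM in Slit1. Cdkn1a supplied most of it in both, with 77.4% and 67.4%. The share of Cdkn1b was 17.8% and 16.9%, and that of Cdkn1c went from 4.83% to 15.7%. Cdkn1c stood at 0.272 of the Cdkn1b level in control and at 0.928 in Slit1 (change 3.41, interval 2.996 to 3.88). Set against the D cyclins, the Cip/Kip sum came to 0.649 in control and 0.896 in Slit1, since the D cyclin sum was lower by the larger factor.

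Cdkn2c, the INK4 inhibitor p18, was the scarcest of the 10 genes in both libraries. It measured 20.7 TPM (248 counts) in control and 24.0 TPM (299 counts) in Slit1. The interval of its ratio of 1.16 (0.975 to 1.38) held 1. In CPM, in FPKM, with edgeR TMM factors and after centring on the median gene the ratio was 1.19 to 1.20 and the interval began just above 1, at 1.01 in each, so this small difference depends on the scaling. The other INK4 genes differed among themselves. Cdkn2b (p15) measured 228 and 155.0 TPM (ratio 0.680, interval 0.649 to 0.713), Cdkn2d (p19) 16.8 and 24.1 TPM (ratio 1.43, interval 1.17 to 1.75), and Cdkn2a 61.5 and 65.5 TPM (ratio 1.07, interval 0.919 to 1.24). None of these 3 passed the 1.5-fold limit.

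Rb1, the target of the D cyclin kinases, measured 53.8 TPM (2163 counts) in control and 41.4 TPM (1730.1 counts) in Slit1, a ratio of 0.769 (interval 0.721 to 0.819). The intronic gene Lpar6 lies within Rb1 and was scarce (4.73 and 2.62 TPM). The other pocket proteins, which bind E2F factors in the same manner, had ratios whose intervals held 1. Rbl1 measured 8.54 and 8.08 TPM (ratio 0.946, interval 0.809 to 1.11), and Rbl2 measured 34.4 and 32.8 TPM (ratio 0.954, interval 0.886 to 1.03).

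**Figure D3:**
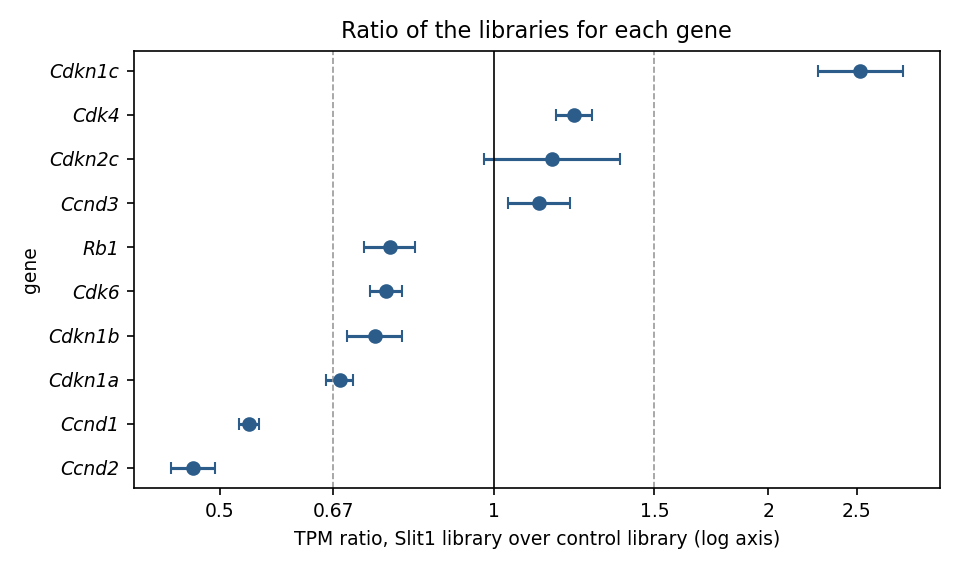
Ratio of TPM, Slit1 library over control library, on a log axis for each of the 10 genes, with 95% counting intervals as bars; the solid line marks 1 and the dashed lines 1.5-fold in either direction. Ccnd1, Ccnd2 and Cdkn1c lie outside the dashed lines with their whole intervals, and the interval of Cdkn2c in TPM (0.975 to 1.38) crosses 1.

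Ordered by level, the control library ran Ccnd1, Cdkn1a, Ccnd2, Cdk4, Cdkn1b, Ccnd3, Cdk6, Rb1, Cdkn1c and Cdkn2c. The counting intervals of neighbours overlapped only for Cdk6 and Rb1. In the Slit1 library the order was Cdk4, Cdkn1a, Ccnd1, Ccnd2, Ccnd3, Cdkn1b, Cdkn1c, Cdk6, Rb1 and Cdkn2c, and the intervals of Cdkn1b and Cdkn1c overlapped, as did those of Cdk6 and Rb1. Ccnd3 thus passed Cdkn1b, and Cdkn1c passed both Cdk6 and Rb1.

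Genes downstream of the D cyclin step were measured as lists. Over all genes tested, 3.72% were higher and 4.83% lower by 1.5-fold, the shares to set beside each list count. None of the 10 E2F and DP factors, most of which are held by pocket proteins, passed the 1.5-fold limit, and their median log2 difference was -0.01. The largest were E2f5 (74.1 and 54.7 TPM, ratio 0.738) and E2f4 (37.7 and 49.6 TPM, ratio 1.31), both linked to repression, followed by E2f1 (8.23 and 10.5 TPM, ratio 1.27) and E2f3 (15.3 and 12.5 TPM, ratio 0.820). In the list of the MuvB core, which assembles with pocket proteins to silence cell cycle genes, with B-Myb and Foxm1, 0 of 7 passed the limit. Lin52 had a ratio of 0.679 and Lin9 of 0.766, while Mybl2 had 1.43 and Foxm1 1.41. The Cdk-activating kinase genes Cdk7 (ratio 0.861), Mnat1 (0.879) and Ccnh (0.970) all had intervals that held 1.

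No gene of the replication and mitosis lists was lower by 1.5-fold, beside 4.83% of all genes tested. Of 9 genes of the cyclin E, cyclin A and Cdk2 step, 1 was higher and 0 lower (median 0.13): Pkmyt1, an inhibitory kinase of Cdk1, measured 5.32 and 10.9 TPM (ratio 2.06, interval 1.60 to 2.66). Cdc25c (ratio 1.44), Ccne1, which encodes cyclin E1 (15.01 and 20.4 TPM, ratio 1.36, interval 1.15 to 1.61), and Wee1 (ratio 0.793) followed.

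Of 22 replication genes controlled by E2F, 1 was higher and 0 lower, beside 3.72% and 4.83% of all genes tested. The median was 0.25, and 18 had a difference above 0, as did 5764 of all 13175 genes tested. Tk1, thymidine kinase, measured 24.5 and 38.2 TPM (ratio 1.56, interval 1.39 to 1.76). The helicase subunits Mcm6 (ratio 1.497) and Mcm5 (1.39) came next, Tyms had a ratio of 0.708, and Pcna measured 148 and 159 TPM (ratio 1.07, interval 0.998 to 1.15).

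Of 17 mitotic and proliferation genes, 3 were higher and 0 lower, beside 3.72% and 4.83% of all genes tested. The median was 0.43. All 17 differences lay above 0 in TPM, as did 5764 of all 13175 genes tested. The lists were chosen with earlier results of these data known. Birc5 (ratio 1.84), Ttk (1.78) and Ube2c (1.57) were the higher ones, and Cdk1, the mitotic kinase, had a ratio of 1.51 (35.8 and 54.0 TPM; its log2(TPM + 1) difference of 0.58 fell just short). The proliferation marker Mki67 measured 11.7 and 17.4 TPM (ratio 1.49, interval 1.37 to 1.61). In CPM (counts per 1000000) and with edgeR TMM factors, 5 of these 17 were higher. Under these scalings, in FPKM and after centring on the median gene, 2 of the replication genes were higher. Over all genes, 519 of 13254 were higher in CPM and 538 of 13254 with edgeR TMM factors. In FPKM 405 of 12250 were higher, and after centring 583 of 13175.

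**Figure D4:**
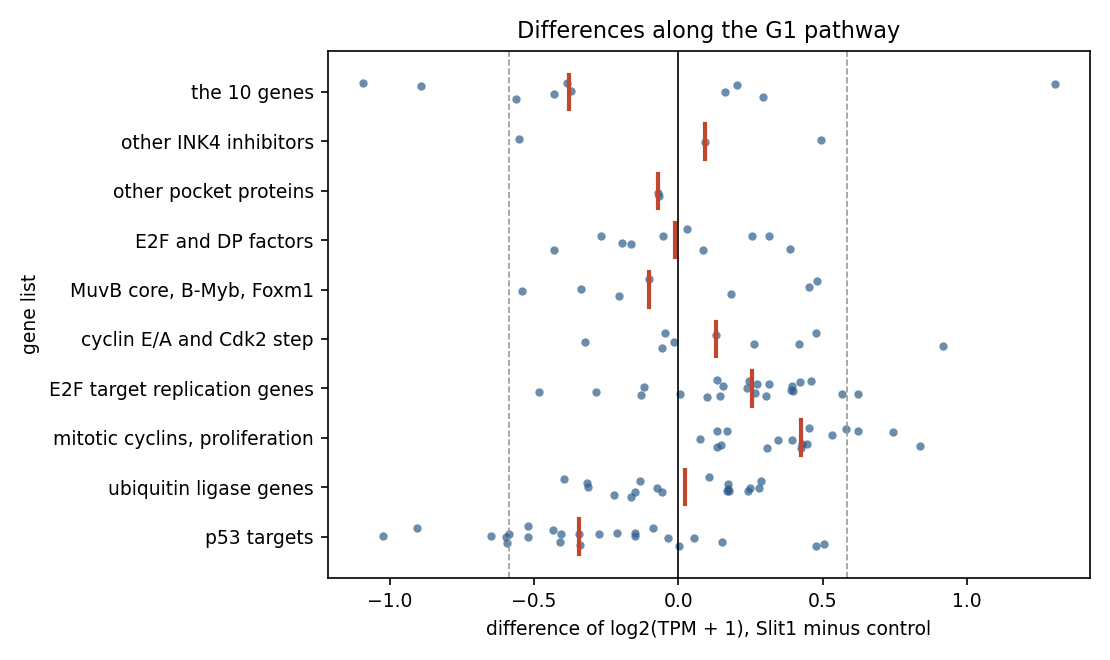
Difference of log2(TPM + 1), Slit1 minus control, for the 10 genes and 9 lists of the same pathway; each point is a gene averaging 1 TPM or more, red bars are medians and dashed lines mark 1.5-fold. The 17 mitotic genes all lie above 0 (median 0.43), and most p53 targets lie below it (median -0.34). Of all 13175 genes tested, 5764 had a difference above 0 and 7383 below it.

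The genes that control the levels of D cyclins and inhibitors were examined in the same way. Of 18 genes for ubiquitin ligases and other proteins that act on the turnover of D cyclins or Cip/Kip proteins, 0 passed the limit. The median was 0.02. The cullins Cul4b (ratio 0.754), Cul4a (0.799) and Cul1 (0.804) and the substrate receptor Dtl (1.25) differed most.

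Of 23 tested transcription factors known to act on the promoters of these genes, 3 were lower and 1 higher. The shares of all genes tested were 4.83% and 3.72%, and the median of the list was -0.20. Egr1, an immediate early factor induced by growth factors, measured 34.9 and 19.9 TPM (1.75-fold lower, interval 1.498 to 2.04), Tcf4 was 1.53-fold and Klf4, an activator of Cdkn1a, 1.58-fold lower. Tcf7l2, a Wnt effector that also marks newly formed oligodendrocytes, was the higher one (38.5 and 76.2 TPM, ratio 1.98, interval 1.85 to 2.12). In CPM, in FPKM (a value per fragment total and length), with edgeR TMM factors and after centring on the median gene, 1 was lower.

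Of 24 tested p53 targets beside Cdkn1a, 6 were lower and 0 were higher, beside 4.83% and 3.72% of all genes tested. The other 18 lay between the limits, and the median was -0.34. Pmaip1 rested on 19.99 and 9 counts. Eda2r, a receptor of the tumour necrosis factor family, was 1.92-fold lower (interval 1.78 to 2.06), Mdm2, the ubiquitin ligase of p53, 1.57-fold lower (178 and 113 TPM, interval 1.499 to 1.65) and Tp53inp1 1.52-fold lower. Gadd45b (ratio 1.44) and Gadd45g (ratio 1.40), growth arrest genes, lay on the other side of 1. After centring on the median gene, and likewise in FPKM, 3 of the 24 targets were lower, and 2 were lower in CPM and with edgeR TMM factors. Over all genes, 490 of 13175 were lower after centring and 342 of 12250 in FPKM. In CPM 473 of 13254 were lower, and with edgeR TMM factors 459 of 13254.

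In the oligodendrocyte marker list 8 of 8 tested markers were higher in the Slit1 library, beside 3.72% of all genes tested. Of 8 astrocyte markers, 2 were lower and 0 higher, beside 4.83% and 3.72% of all genes tested. The lower ones were Slc1a2 (215 and 94.1 TPM) and Gja1 (506 and 296 TPM). Gfap (ratio 1.31), Aqp4 (1.19) and Aldoc (1.12) had ratios above 1, and the interval of Aldh1l1 (ratio 1.03, 0.959 to 1.11) held 1. Slc1a3 (ratio 0.880, interval 0.870 to 0.891) and S100b (ratio 0.933, interval 0.911 to 0.954) lay below 1. The astrocyte sum was 9446 TPM in control and 10450 TPM in Slit1, of which Gfap gave 4694 and 6130 TPM. The part of the marker differences in those of Ccnd1, Ccnd2 and Cdkn1c was not tested.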

How the data were processed

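RNA of rat OPCs, 1 control and 1 Slit1 library, was compared. The authors deposited 1 table with 3 units. Per the file headers these include read counts, which are estimated counts and mostly not whole. TPM values were scaled by the authors for length and sum to 1000000 per library. FPKM values were deposited as fragments scaled by length and library total, per the file headers. The genome build mRatBN7.2 comes from the submitters' processing notes. The sources used here name no aligner, counter, annotation or strand setting. The table held 0 columns of other samples.

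The difference was log2(TPM + 1), Slit1 minus control, in genes averaging 1 TPM or more; the pseudocount of 1 understates changes of low genes. Ratio intervals (exact, 95%) used counts rounded to whole numbers and cover counting error only. The interval of a change in the ratio of 2 genes was the exact conditional one for 4 counts. Since no group has a second library, no test, p-value or replicate removal was possible. The interval of a count ratio and a 1.5-fold call on counts were tried on simulated Poisson counts. Those counts held no variation between cultures. The log2(TPM + 1) rule and the intervals of changes in the ratio of 2 genes were not tried. Python 3.11.15, scipy 1.17.1 and edgeR 4.0.16 (TMM factors) were used.

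All 10 genes were named, with Slit1, Pdgfra, Mbp, Mki67 and Pcna, and from every other list the 4 genes that differed most; marker genes, overlapping genes, Gadd45b and Gadd45g were chosen after their values were seen. The genes and lists were chosen with earlier results of these data known. Motifs were chosen after the promoter windows were seen. Gene numbers of 17211 of 17455 genes matched the RefSeq table (GRCr8), used for overlaps and promoter windows. Alternatives were CPM, FPKM, TMM factors, centring, other pseudocounts and floors, and a 2-fold limit.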

Additional observations from a re-analysis of the deposited data

How the results depend on the processing

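No paired analysis was possible because each group had 1 library. None of the 10 genes changed direction under 4 other scalings (CPM, FPKM, edgeR TMM factors, centring on the median gene). These scalings moved each log2 difference by less than the smallest of the 10, 0.16 for Ccnd3. They were thus too small to turn a gene, and the unchanged directions are no check of the differences. The count of 1 gene higher and 2 lower by 1.5-fold was the same under all 11 alternatives except the 2-fold limit. There 1 was lower (Ccnd2), since that limit is stricter. The other floors could not change the count, since the lowest average of the 10 genes was 22.4 TPM (Cdkn2c). Ccnd1 ranged from -0.89 to -0.84, Ccnd2 from -1.10 to -1.03 and Cdkn1c from 1.20 to 1.35 on the log2 scale. The share of higher among all genes called was 43.5% in TPM, 52.3% in CPM, 54.2% in FPKM, 54.3% with the median gene set to 0 and 54.0% with edgeR TMM factors. For the 8 list counts above 0, 22 of 56 recomputed values moved by more than 1.5 times. The 22 include all 8 counts under the 2-fold limit, which is stricter. Cdk4 held 39.2% of the kinase counts in control and 51.0% in Slit1, against 83.9% and 89.3% of TPM, since counts grow with transcript length. Depth limits genes of few counts, such as Pmaip1 (19.99 and 9).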

Other observations

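Cdkn1c is imprinted, and other imprinted genes linked to growth were listed beside it. Of 7 tested, 1 was at least 1.5-fold higher and 1 lower in the Slit1 library (median 0.15), beside 3.72% and 4.83% of all genes tested. Igf2, a growth factor gene, measured 13.8 and 21.9 TPM in control and Slit1 (ratio 1.58, interval 1.40 to 1.79), and Mest measured 105.8 and 54.6 TPM (1.94-fold lower, interval 1.76 to 2.14). Igf2r, the receptor that clears Igf2, had a ratio of 0.697 (interval 0.660 to 0.736) and Ndn, a growth suppressor of neurons, 1.30 (interval 1.24 to 1.37). The list had no common direction.

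In the list of cyclins outside the D family that have other roles, none of 8 passed the 1.5-fold limit (median -0.06). Ccng1, cyclin G1, was counted among the p53 targets and was 1.501-fold lower (769.7 and 513 TPM); it is named after its value was seen. Ccnc, a cyclin of the Mediator complex, measured 69.2 and 51.0 TPM (ratio 0.736, interval 0.687 to 0.790), and the ratios of Ccnt1, Ccnk and Ccnl2 were 0.839, 1.17 and 1.16. These values describe 1 library per group.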
